A study of Mus musculus with 12 samples.

Results

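The difference that loss of NKG2D made in mouse helper T cells was set against itself in 2 kinds of culture: the gap between knockout (KO) and wild-type (WT) cells in Th17 cultures minus the same gap in Th1 cultures, gene by gene. All 12 RNA-seq libraries of the series entered the contrast, 3 per genotype in either culture, and 12189 genes passed the filter on low counts. Every cell carried the OT-II transgene, an ovalbumin-specific T cell receptor, on the C57BL/6 x OT-II strain for WT and OT-II x NKG2D-/- for KO. Naive CD4+ T cells from lymph nodes and spleen were activated with the ovalbumin peptide OVA323-339 and a-CD28 beside antigen-presenting cells, polarized on day 0 and again on day 5, and harvested on day 8. Th1 cultures received IL-12, IL-2 and a-IL-4, whereas Th17 cultures received IL-6, IL-1b, a-IL4, IL-23 and a-IFNg, with IL-12 added once the second stimulation had taken place. WT cells were sorted as Thy1.2+ NKG2D+ and KO cells as Thy1.1+, so the Thy1 allele and the gate on NKG2D cannot be told apart from genotype in either culture. The labels do not say which samples came from one animal or one culture, so each p-value rests on the spread among these libraries, which could be technical only.

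NKG2D, encoded by Klrk1, is an activating receptor of NK cells and cytotoxic T cells that binds stress-induced ligands and signals through the adaptor DAP10 (Hcst) to PI3 kinase. Its gene lies in the NK gene complex beside the genes of CD94 and the NKG2 receptors, which pair on the cell surface. Th1 cells are defined by T-bet and IFN-gamma, Th17 cells by IL-17, and Th17 cells given IL-12 are known to acquire Th1 traits.

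Totals were 9108203 to 12688637 counts in the 6 Th1 libraries and 10405299 to 11587560 counts in 3 of the Th17 libraries (WT 1, KO 1 and KO 3). The other 3 Th17 libraries were shallow, with 1647232 to 2731909 counts (WT 2, WT 3 and KO 2), and 1 gene ID took 18.3%, 48.1% and 51.0% of the counts in WT 2, WT 3 and KO 2. Leaving that ID out, the mitochondrial share was 14.2% to 14.8% (WT) and 14.6% to 15.1% (KO) in Th1, and 16.9% to 18.6% (WT) and 19% to 20.8% (KO) in Th17. The gap between genotypes in this share was 2.01 percentage points wider in Th17 (exact permutation test within cultures, two-sided p = 0.145 over 400 arrangements, adjusted p = 0.58 over the 4 library measures compared). Its part in the gene results below was not tested. T cell markers (Cd3e, Cd4, Trac and others) summed to between 10000 and 11900 CPM, read counts scaled to the library total, in every library.

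Klrk1, the deleted gene, checked the labels in both cultures. It stood at 160.9, 157.7 and 128.4 CPM in Th1 WT and at 5.58, 5.63 and 3.31 CPM in Th1 KO. In Th17 it stood at 130.3, 140.8 and 132.9 CPM in WT against 3.35, 2.10 and 1.60 CPM in KO. The groups did not overlap in either culture, and the loss had the same direction in both, with log2 changes of -4.94 ± 0.16 (SE) in Th1 and -5.75 ± 0.22 in Th17. The difference between those changes, here called the interaction, was -0.81 ± 0.34 and did not pass the threshold of 0.05 (adjusted p = 0.447, from edgeR's quasi-likelihood test with Benjamini-Hochberg adjustment over all genes, as is each adjusted p below). Hcst, the adaptor DAP10, was called lower in KO in Th17 (-0.55 ± 0.15, adjusted p = 0.0326) and not in Th1 (-0.07 ± 0.10, adjusted p = 0.829). Its interaction of -0.47 ± 0.18 did not pass (adjusted p = 0.346). Thy1, which marks the congenic difference, had an interaction of -0.23 ± 0.17 (adjusted p = 0.758). Tyrobp, the adaptor DAP12, had 11 counts in all libraries together and was not tested.

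Genotype differences were mostly alike in direction in the 2 cultures, and a small set of 72 genes (0.591% of those tested) differed between them. Of these, 58 (0.476% of all genes) had a negative interaction, meaning that the KO level relative to WT was lower in Th17 than in Th1, and 14 (0.115%) had a positive one. In single cultures 562 genes passed in Th1 (4.61%) and 711 in Th17 (5.83%), and 204 passed in both, which is 36.3% of the Th1 calls and 28.7% of the Th17 calls. Of those 204, 150 were lower in KO in both cultures, 52 were higher in both and 2 went opposite ways. A gene called in 1 culture only was seldom shown to differ between cultures: 17 of the genes called in Th1 only (4.75%) and 43 of the 507 called in Th17 only (8.48%) passed the interaction. The same sign in the other culture was seen for 280 of the calls in Th1 only and for 401 of those in Th17 only.

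The 72 genes fell into classes by the culture in which KO differed from WT. In 41 the KO level was lower in Th17 with no call in Th1, and in 2 it was higher in Th17 with no call in Th1. In 10 it was lower, and in 7 higher, in Th1 with no call in Th17. The remaining 12 were called in both cultures, 10 of them lower in KO in both and 2 in opposite directions. The 41 genes lower only in Th17 had a median log2 change of -0.73 in Th17 (range -2.42 to -0.29) and of 0.00 in Th1 (range -0.42 to 0.88), and 16 of them fell by more than 2-fold. In 39 of the 41 the Th17 KO libraries did not overlap Th17 WT (18.5% of all genes), as the choice of the class would make likely. The Th1 groups overlapped in 24 of the 41. In the rest they stood apart without a call (24.5% of all genes stood apart), some with KO lower and some with KO higher. Lower only in Th17 thus means no call in Th1, and not that a Th1 difference is absent.

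How many genes passed depended on the libraries. Without Th17 KO replicate 3 the count was 38, and without Th17 KO replicate 1 it was 108. Leaving out the 3 shallow libraries gave 50 genes, 40 of them among the 72, and leaving out the 3 deep Th17 libraries instead gave 9 genes, 7 of them among the 72. All 72 had the same sign in the deep and in the shallow Th17 libraries. Their choice from all libraries together, with the Th1 libraries shared by both fits, would make that likely. Of the 42 interaction genes named here, 18 passed with any 1 library left out. With the 3 shallow libraries left out, 17 of the 42 did not pass, with adjusted p from 0.0532 (Pik3cd) to 0.175 (Lag3): Sp140, Ifngr1, Ddt, Ppp2r3c, Cd96, Iigp1, Tcf4, Prex1, Mecom, Pik3cd, Rbm47, Tmem176b, Lag3, Ffar2, Cars, Tex15 and Casp1. DESeq2 did not call Sp140, Ddt, Tcf4, Hspbp1, Cars or Tex15, at adjusted p from 0.0572 (Sp140) to 0.142 (Ddt).

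**Figure D1:**
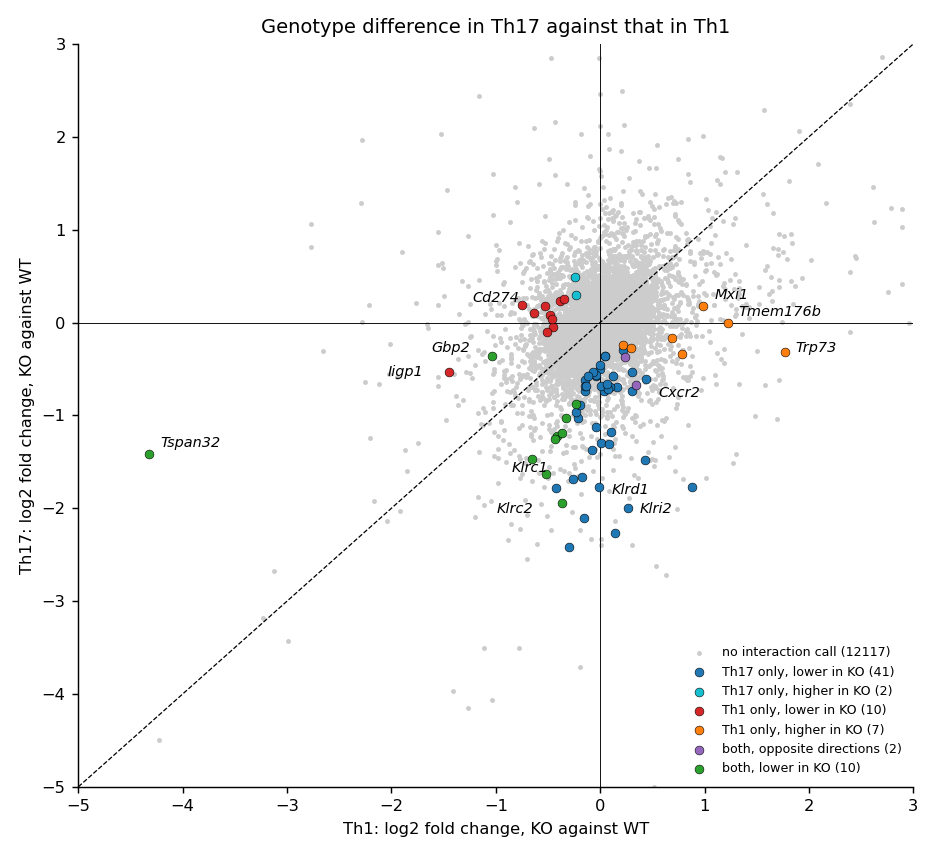
Each point is a gene, with its log2 fold change of KO against WT in Th1 on the x axis and in Th17 on the y axis, and colours mark the classes of the 72 interaction genes; the dashed line marks equal changes and 14 points lie outside the axes. Most coloured points lie below the dashed line near a Th1 change of 0, which is the class of 41 genes lower in KO in Th17 only.

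**Figure D2:**
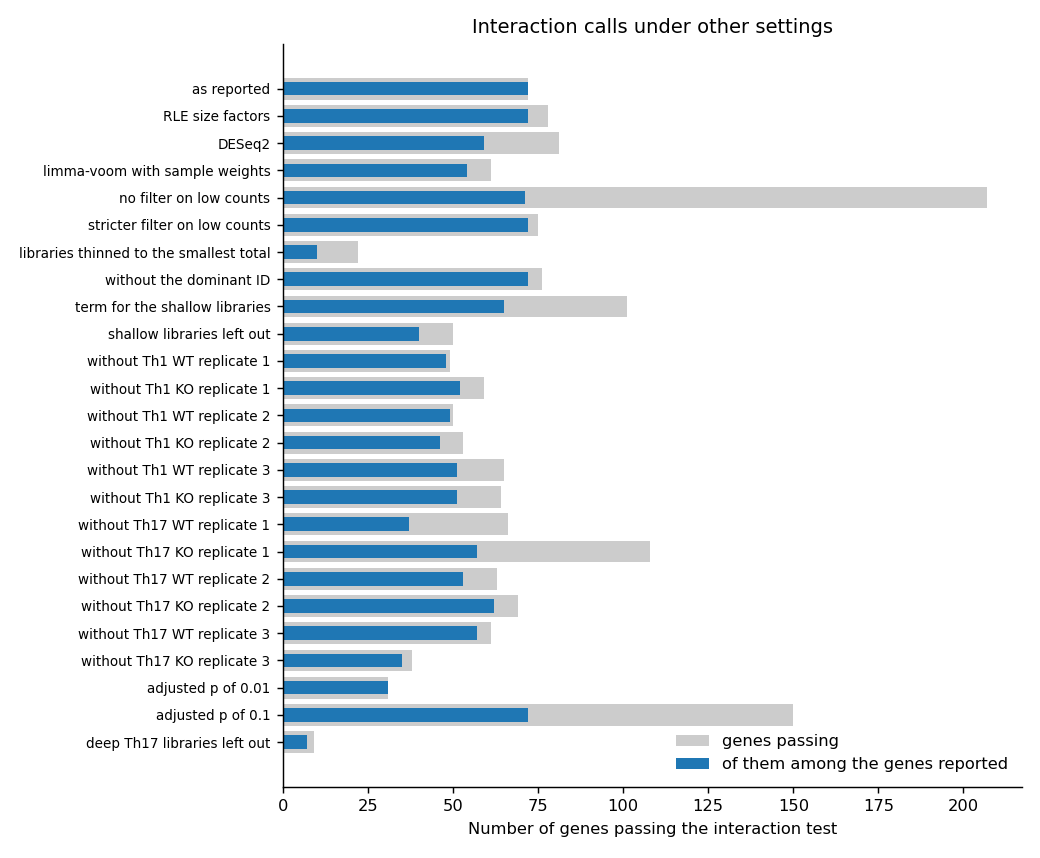
Number of genes that passed the interaction (x axis, from 0) as reported and under the other settings of processing, threshold or libraries (y axis), the fit with a block by library code not drawn, with all genes in grey and those among the reported 72 in blue. Of the bars drawn, the grey one is shortest with the deep Th17 libraries left out, at 9 genes, and longest with no filter on low counts, at 207 genes.

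The lowest adjusted p of the interaction was that of Klrd1, which encodes CD94, the partner of the NKG2 receptors (ENSMUSG00000030165, chr6:129591782-129598775, GRCm38, plus strand). Its level in Th1 was 104.0, 118.5 and 105.9 CPM in WT against 116.8, 103.5 and 106.3 CPM in KO, groups that overlapped. In Th17 it was 84.7, 98.5 and 85.1 CPM in WT but 25.3, 28.4 and 26.6 CPM in KO, with every KO library below every WT library. The log2 change was thus -0.01 ± 0.07 in Th1 and -1.77 ± 0.09 in Th17, an interaction of -1.76 ± 0.11 (adjusted p = 3.01e-10). With the 3 shallow libraries left out it was -1.71 (adjusted p = 9.46e-08), and with the 3 deep Th17 libraries left out -1.73 (adjusted p = 0.000718).

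The NKG2 genes that sit beside it on chromosome 6 moved the same way. Klrc1, which encodes the inhibitory receptor NKG2A (chr6:129666015-129678973), was at 395.0, 404.6 and 430.1 CPM in Th1 WT and 329.4, 323.9 and 375.7 CPM in Th1 KO. The Th17 level was 169.9, 176.8 and 172.4 CPM in WT against 46.8, 39.9 and 64.3 CPM in KO, so the groups stood apart in both cultures and the gap was wider in Th17 (interaction -1.43 ± 0.15, adjusted p = 0.000144). Klrc2, which encodes the activating NKG2C (chr6:129647496-129660689), fell in both cultures, by 0.37 ± 0.09 in Th1 and 1.94 ± 0.14 in Th17 on the log2 scale. Its interaction was -1.57 ± 0.17 (adjusted p = 2.31e-05). Klri2, another lectin-like receptor gene of the complex (chr6:129729041-129740484), was at 13.4, 13.1 and 14.3 CPM in Th1 WT, 16.6, 14.4 and 18.3 CPM in Th1 KO, 9.57, 10.7 and 6.23 CPM in Th17 WT and 1.87, 2.10 and 2.94 CPM in Th17 KO. The KO libraries were thus above WT in Th1, with no call (0.27 ± 0.12, adjusted p = 0.265), and below WT in Th17, and the interaction was -2.26 ± 0.26 (adjusted p = 1.21e-05). These 4 genes passed with any 1 library left out. Klri2 rested on 146 counts in all Th17 WT libraries and 61 in all Th17 KO libraries, very few of the latter in the shallow KO 2. Klrc1 and Klrc2 are close copies, and how reads shared between them were counted is not given in the sources used here, so the split between the 2 is uncertain.

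Of 24 listed CD94, NKG2 and other Klr receptor genes, 9 passed the filter on low counts. All 9 had a negative interaction (49.3% of all genes), and their median was -1.76 against 0.00 over all genes. The interaction was passed by 4 of the 9, where 0.476% of all genes passed with a negative sign. An unadjusted p under 0.05 with a negative sign was seen for 8 (5.61% of all genes). In Th17 8 of the 9 were lower in KO (4.02% of all genes), against 2 of 9 in Th1 (2.92%). Among those that missed the threshold, Klrb1f had an interaction of -2.34 (adjusted p = 0.0918), Klra3 one of -1.78 (adjusted p = 0.0759, and 0.0357 without Th1 KO 1) and Klre1 one of -1.84 (adjusted p = 0.109). By position, 4 of the 30 genes tested within 2 Mb of Klrk1 passed the interaction (13.3%, against 0.591% of all genes), namely the 4 above. Within 5 Mb the only addition was Lag3, for 5 of 77 (6.49%). None of the 16 tested neighbours of Klrk1 outside the Klr families passed, and Styk1, a kinase-like gene among them, had -1.19 ± 0.30 (adjusted p = 0.0707, and 0.0485 without Th17 WT replicate 2).

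Markers of NK and innate lymphoid cells were lower in KO in both cultures, as a summed level. In Th1 their summed level was 34.9 to 43.7 CPM for WT and 21.5 to 27.8 CPM for KO. In Th17 it ran from 24.7 to 44.6 CPM for WT and from 8.40 to 10.2 CPM for KO. Of the 9 listed markers 4 were tested (Kit, Il1rl1, Klre1 and Itga2), Klre1 being also 1 of the listed Klr genes, and none passed the interaction. The highest levels were those of Il1rl1 and Kit, at most 29.3 and 19.4 CPM. Kit was called lower in KO in Th1 (adjusted p = 0.00105) and in Th17 (adjusted p = 8.63e-07). Klre1 was called in Th17 only (adjusted p = 0.000568), and Il1rl1 and Itga2 in neither culture. The part of these markers in the genes above was not tested. The defining markers were at or near 0: Ncr1 had 0 counts in all libraries, and Tyrobp, Klrb1c and Eomes had 11, 11 and 8 counts in all 12 together. In bulk samples fewer cells of a type and less RNA per cell cannot be told apart.

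Among the other genes lower in KO only in Th17, Serpine2, which encodes the secreted protease inhibitor nexin-1, had the lowest adjusted p (chr1:79794197-79861180). It was at 27.3, 28.9 and 22.1 CPM in Th1 WT and 23.3, 23.7 and 22.2 CPM in Th1 KO. In Th17 WT it was at 92.8, 89.8 and 104.9 CPM, and in Th17 KO at 27.4, 32.6 and 31.3 CPM. The higher level of Th17 WT cells was therefore close to the Th1 level in Th17 KO cells, and the interaction was -1.49 ± 0.14 (adjusted p = 3.72e-07).

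P2ry14, a receptor for UDP-sugars, was level in Th1 at 74.8, 74.4 and 73.5 CPM in WT against 74.3, 74.5 and 67.8 CPM in KO. In Th17 it went from 21.01, 20.96 and 18.7 CPM in WT to 11.3, 8.40 and 7.81 CPM in KO (interaction -1.08 ± 0.15, adjusted p = 0.000228). Chd3, a helicase subunit of the NuRD chromatin complex, was at 66.8, 70.4 and 63.3 CPM in Th17 WT and 33.4, 40.97 and 31.2 CPM in Th17 KO. In Th1 its KO libraries were also below WT without passing (-0.22 ± 0.07, adjusted p = 0.0812), and the interaction was -0.81 ± 0.12 (adjusted p = 0.00029). Serpine2, P2ry14 and Chd3 passed the interaction with any 1 library left out.

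**Figure D3:**
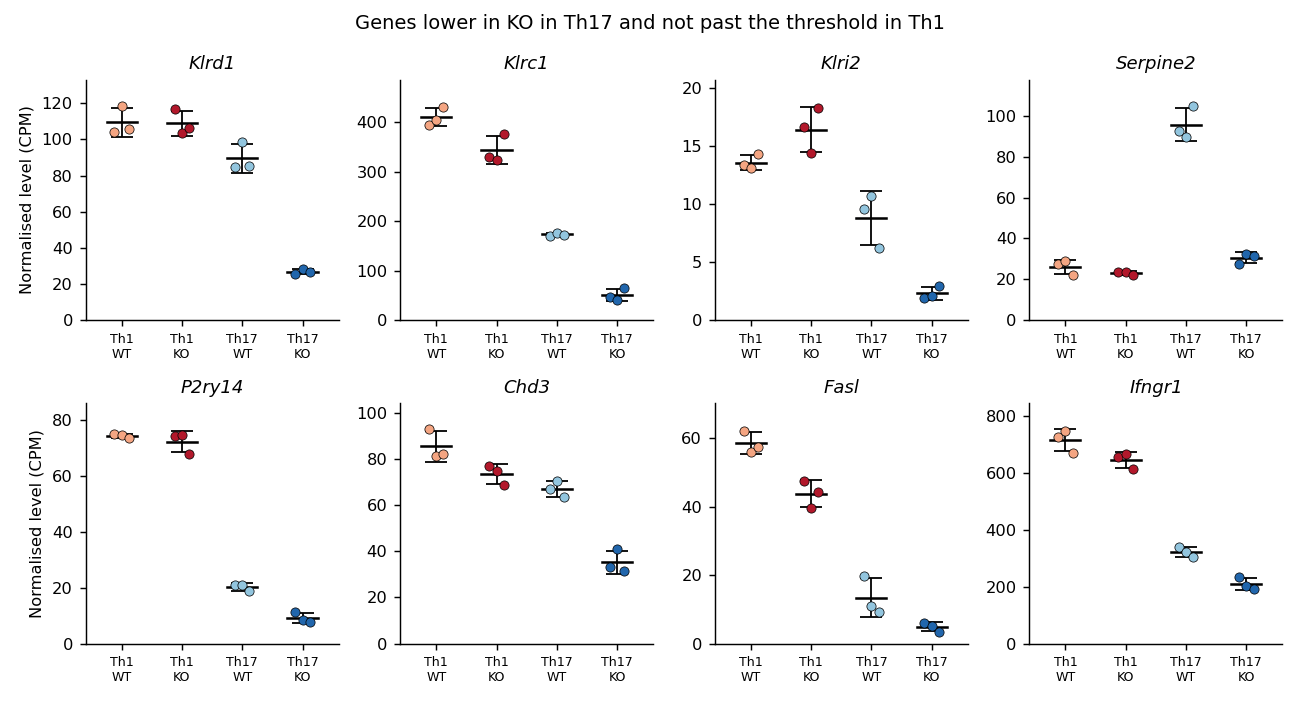
Normalised level in CPM (y axis, from 0) of 8 genes in the 12 libraries by group (x axis), with points for libraries, a long bar for the mean of 3 and whiskers for ± 1 SD. In each panel the Th17 KO points lie below the Th17 WT points, while Klrd1, Serpine2 and P2ry14 overlap between the Th1 groups.

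Among cytotoxic effector genes 2 passed, both with a negative interaction; DESeq2 called 7, again all negative, and without the deep Th17 libraries 0 passed. Over all genes 0.476% passed with a negative sign. Of 22 listed genes 17 were tested, and 15 had a negative interaction (49.3% of all genes). The median of the 17 was -0.61, and 11 had an unadjusted p under 0.05, all negative (5.61% of all genes). In Th17 8 of the 17 were lower in KO (4.02% of all genes), against 1 of 17 in Th1 (2.92%). Fasl, the ligand that triggers death through Fas, was at 61.96, 55.9 and 57.5 CPM in Th1 WT, 47.5, 39.5 and 44.3 CPM in Th1 KO, 19.8, 11.1 and 9.35 CPM in Th17 WT and 6.15, 5.25 and 3.53 CPM in Th17 KO. KO lay below WT without overlap in both cultures, by -0.42 ± 0.12 in Th1 (adjusted p = 0.0701) and -1.78 ± 0.25 in Th17 (adjusted p = 0.000388), with an interaction of -1.36 ± 0.28 (adjusted p = 0.040). That call rested on several libraries: it was lost on leaving out any 1 of 8, with adjusted p from 0.0619 (without Th1 WT 1) to 0.421 (without Th17 WT 1). Ctla2b, which encodes a cysteine protease inhibitor, was at 66.9, 80.7 and 65.4 CPM in Th17 WT and 38.7, 37.8 and 33.3 CPM in Th17 KO. In Th1 its KO libraries were also all below WT without passing (-0.24 ± 0.07, adjusted p = 0.0724). Its interaction of -0.73 ± 0.12 (adjusted p = 0.00132) held with any 1 library left out.

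The classical granule genes had values of the same sign without passing in edgeR. In DESeq2, with its own adjustment, Gzma (adjusted p = 3.16e-06), Nkg7 (adjusted p = 4.1e-06), Gzmb (adjusted p = 0.00885) and Prf1 (adjusted p = 0.0148) passed, so these calls depend on the tool. The values from edgeR follow. Gzmb, granzyme B, had an interaction of -1.53 (adjusted p = 0.201), Prf1, perforin, one of -1.17 (adjusted p = 0.166, and 0.0231 without Th1 WT 3), Gzma, granzyme A, one of -2.31 (adjusted p = 0.0862, and 0.025 without Th1 KO 2) and Nkg7, a granule membrane protein, one of -1.33 (adjusted p = 0.0863, and 0.0132 without Th1 WT 3 or 0.0216 without Th1 KO 2). Prf1 and Nkg7 were nonetheless called lower in KO within Th17, at -1.34 (adjusted p = 0.00972) and -1.57 (adjusted p = 0.00346), as was Gzma at -1.60 (adjusted p = 0.0497), and none of the 3 within Th1. Ifng, the signature Th1 cytokine, showed the same form. It was at 929.0, 657.3 and 657.5 CPM in Th1 WT, 783.9, 546.8 and 611.4 CPM in Th1 KO, 173.8, 178.0 and 232.6 CPM in Th17 WT and 59.3, 38.9 and 66.9 CPM in Th17 KO. The Th17 groups stood apart (-1.66 ± 0.24, adjusted p = 0.00566) and the Th1 groups overlapped, but the interaction of -1.45 ± 0.31 missed the threshold (adjusted p = 0.109, and 0.00254 in DESeq2).

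Of the 23 tested genes of the Th1 programme, 18 had a negative interaction (49.3% of all genes), with a median of -0.36. In this list 1 member passed with a positive sign (0.115% of all genes). Ifngr1 passed with a negative sign (0.476% of all genes). It encodes the ligand-binding chain of the IFN-gamma receptor and was at 726.4, 745.7 and 671.0 CPM in Th1 WT, 655.1, 664.8 and 612.2 CPM in Th1 KO, 338.2, 321.5 and 304.2 CPM in Th17 WT and 233.2, 202.7 and 192.5 CPM in Th17 KO. Its drop in Th17 (-0.62 ± 0.07) exceeded that in Th1 (-0.15 ± 0.07, adjusted p = 0.251) by an interaction of -0.47 ± 0.10 (adjusted p = 0.022). Leaving out any 1 of 5 libraries (Th1 KO 1, Th1 KO 2, Th1 WT 3, Th17 WT 1 or Th17 KO 3) raised the adjusted p to between 0.0546 and 0.103. Tbx21, which encodes T-bet, had -0.20 ± 0.29 (adjusted p = 0.914), with Th17 groups that overlapped.

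In the list of NKG2D, its ligands and its signalling genes, 1 of 19 tested genes passed, with a negative sign (0.476% of all genes). Pik3cd, the catalytic PI3 kinase subunit p110-delta, was at 653.8, 659.7 and 703.8 CPM in Th1 WT and 630.9, 664.2 and 715.6 CPM in Th1 KO, groups that overlapped. Th17 libraries held 376.9, 350.4 and 326.0 CPM in WT against 283.8, 242.6 and 239.2 CPM in KO, which did not, and the interaction was -0.46 ± 0.10 (adjusted p = 0.0307). That call was lost on leaving out any 1 of 8 libraries, at adjusted p from 0.0534 (without Th17 WT 2) to 0.122 (without Th17 KO 3). In the same list 8 of 19 genes were lower in KO in Th17 (4.02% of all genes) and 3 of 19 in Th1 (2.92%). The deleted gene Klrk1 was 1 of them in both cultures. Plcg1 and Plcg2, phospholipases of receptor signalling, had interactions of -0.35 and -0.52 (adjusted p = 0.0949 and 0.0951).

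Other PI3 kinase genes among the 72 were picked out after their values were seen. Pik3r5, a regulatory subunit of the PI3 kinase p110-gamma, was at 77.8, 80.4 and 79.3 CPM in Th1 WT, 84.1, 78.4 and 80.8 CPM in Th1 KO, 32.3, 28.1 and 40.5 CPM in Th17 WT and 20.6, 21.01 and 17.6 CPM in Th17 KO (interaction -0.77 ± 0.13, adjusted p = 0.00132). Prex1, a Rac exchange factor that responds to PI3 kinase lipids, was at 132.0, 140.4 and 160.9 CPM in Th17 WT and 90.3, 84.03 and 86.3 CPM in Th17 KO, with a Th1 change of 0.00 ± 0.07 (interaction -0.69 ± 0.12, adjusted p = 0.00271). Both were lower in KO in Th17, held with any 1 library left out, and had Th1 groups that overlapped.

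Several more genes of the class had low levels in Th17 and rest on few counts. Aqp9, a channel for glycerol and water, was at 3.56, 2.37 and 4.15 CPM in Th17 WT and 0.623, 1.05 and 0.924 CPM in Th17 KO, and at 41.2 to 50.4 CPM in all Th1 libraries (interaction -1.95 ± 0.33, adjusted p = 0.00227, and 0.197 without Th17 WT 1). Ffar2, a receptor for short-chain fatty acids, had -1.39 ± 0.32 (adjusted p = 0.042, lost on leaving out any 1 of 9 libraries, at 0.0572 without Th1 KO 3 to 0.217 without Th17 KO 1). Mecom, a zinc-finger transcription factor, had -2.12 ± 0.43 on 13 counts over the 3 Th17 KO libraries (adjusted p = 0.0133, and 0.135 without Th17 WT 1 or 0.154 without Th17 KO 3). Rbm47, an RNA-binding protein, had -1.91 ± 0.36 (adjusted p = 0.00721, and 0.0501 without Th17 KO 3). In the opposite direction, Ppp2r3c, a regulatory subunit of the phosphatase PP2A, was at 19.5, 17.01 and 20.8 CPM in Th17 WT and 27.3, 30.5 and 25.5 CPM in Th17 KO, with no call in Th1 (interaction 0.73 ± 0.15, adjusted p = 0.0168, and 0.0664 without Th17 WT 1).

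Interferon response genes that passed the interaction all did so with a positive sign. Of 44 listed genes 40 were tested, 16 were lower in KO in Th1 (2.92% of all genes) and 7 in Th17 (4.02%), and 1 was higher in Th17 (1.81%). The median interaction was 0.20, and 3 passed (Gbp2, Irgm1 and Iigp1), where 0.115% of all genes passed with a positive sign. An unadjusted p under 0.05 was seen for 9, all positive (4.14% of all genes). A positive value here means that the KO deficit seen in Th1 was smaller or missing in Th17.

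Gbp2, an interferon-induced GTPase that acts against pathogens inside vacuoles, fell in both cultures and more so in Th1. It was at 805.8, 902.8 and 792.1 CPM in Th1 WT, 430.4, 419.8 and 372.1 CPM in Th1 KO, 775.8, 840.9 and 798.5 CPM in Th17 WT and 664.0, 617.6 and 600.8 CPM in Th17 KO. The WT levels overlapped between cultures, and the change was -1.03 ± 0.07 in Th1 and -0.36 ± 0.07 in Th17 (interaction 0.68 ± 0.10, adjusted p = 0.000259). Gbp2 passed under each of 23 alternative settings, with an adjusted p of at most 0.0381. The Gbp genes are close copies of each other, so reads could be split among them, and Gbp3, Gbp7 and Gbp8 had interactions of 0.26, -0.13 and 0.36 without passing.

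Irgm1, a GTPase of the same defence system, was at 123.1, 130.2 and 138.3 CPM in Th1 WT and 90.9, 99.9 and 92.9 CPM in Th1 KO. In Th17 the groups overlapped, at 101.7, 120.6 and 112.1 CPM in WT against 105.2, 108.2 and 121.2 CPM in KO (interaction 0.50 ± 0.11, adjusted p = 0.0251). Iigp1, another such GTPase, fell in Th1 from 61.3, 66.1 and 73.8 CPM to 21.5, 26.1 and 25.8 CPM (-1.45 ± 0.10). Its Th17 groups overlapped, with a smaller change of the same sign just short of a call (-0.53 ± 0.16, adjusted p = 0.054). The interaction of Iigp1 was 0.92 ± 0.19 (adjusted p = 0.0251). With any 1 of 6 libraries left out the adjusted p of Irgm1 was 0.0599 (without Th1 KO 3) to 0.123 (without Th17 WT 1), and that of Iigp1 was 0.124 without Th17 WT 1 and 0.182 without Th17 KO 3.

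Cd274, which encodes the inhibitory ligand PD-L1, an interferon-inducible gene, was at 56.95, 53.8 and 51.8 CPM in Th1 WT and 33.7, 35.02 and 35.8 CPM in Th1 KO. In Th17 it was at 63.04, 51.4 and 46.7 CPM in WT against 66.7, 48.3 and 60.4 CPM in KO. All Th1 KO libraries lay below all others in the series, and the interaction was 0.74 ± 0.13 (adjusted p = 0.00262), called with any 1 library left out.

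The promoters of these genes were searched for the interferon-stimulated response element, here GAAANNGAA on either strand, in a RefSeq window (GRCm38.p6) from 250 bases before to 50 after the start. A promoter was at hand for 9040 of the tested genes, of which 7.32% held a match. Of the 7 genes lower in Th1 only that had one, Cd274 and Irgm1 held it, and of the 8 genes lower in both that had one, Gbp2 held it. Among the 36 genes lower in Th17 only, 2 did. Zdhhc8, called in opposite directions in the 2 cultures, held it as well. Over all interaction genes 6 of 59 promoters held a match (10.2%). The promoters of Cd274, Irgm1 and Gbp2 follow 5′ to 3′ in the sense of the gene, with the matches in capitals, because they belong to genes whose KO deficit was larger in Th1. Cd274 is shown from chr19:29367188-29367487 on the plus strand, Irgm1 from chr11:48871371-48871670 on the minus strand and Gbp2 from chr3:142620413-142620712 on the plus strand.
Cd274: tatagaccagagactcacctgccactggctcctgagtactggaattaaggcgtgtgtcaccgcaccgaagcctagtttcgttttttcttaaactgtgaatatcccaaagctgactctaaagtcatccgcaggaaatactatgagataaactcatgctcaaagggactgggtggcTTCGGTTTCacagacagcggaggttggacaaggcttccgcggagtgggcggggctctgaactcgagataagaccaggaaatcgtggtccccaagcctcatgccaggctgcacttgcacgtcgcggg
Irgm1: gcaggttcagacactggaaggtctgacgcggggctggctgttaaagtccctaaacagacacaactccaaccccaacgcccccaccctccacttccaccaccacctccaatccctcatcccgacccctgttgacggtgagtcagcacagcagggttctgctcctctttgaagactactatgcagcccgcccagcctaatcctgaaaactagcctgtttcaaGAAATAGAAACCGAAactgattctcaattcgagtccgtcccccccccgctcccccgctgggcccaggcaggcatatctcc
Gbp2: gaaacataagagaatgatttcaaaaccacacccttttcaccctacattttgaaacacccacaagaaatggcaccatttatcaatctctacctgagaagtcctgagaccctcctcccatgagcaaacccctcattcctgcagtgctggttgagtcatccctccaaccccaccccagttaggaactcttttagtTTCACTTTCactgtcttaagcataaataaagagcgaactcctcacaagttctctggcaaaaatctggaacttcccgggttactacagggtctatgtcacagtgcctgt
The match began 76 bases before the RefSeq start in Cd274 and 58 bases before it in Gbp2, in both on the opposite strand. Irgm1 held 2 overlapping matches, at 30 and 24 bases before the start. A match describes these letters only and is not a measured binding site. The gamma-activated site TTCNNNGAA was in 7% of all promoters and in 0 of those 7, and the T-box motif GGTGTGA, in 3.25% of all promoters, was in 1 of those 7 and in 1 of the 36.

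The other genes lower in KO only in Th1 included Cysltr2, a receptor for cysteinyl leukotrienes. It was at 58.7, 56.7 and 56.8 CPM in Th1 WT and 44.4, 38.2 and 37.2 CPM in Th1 KO, and at 87.2, 94.1 and 91.4 CPM in Th17 WT and 99.9, 109.2 and 101.7 CPM in Th17 KO. KO lay below WT in Th1 and above it in Th17, where the change was not called (0.18 ± 0.08, adjusted p = 0.213), and the interaction was 0.71 ± 0.10 (adjusted p = 0.000419), called with any 1 library left out. Casp1, the protease that matures IL-1 and IL-18, showed the same crossing, with -0.38 ± 0.08 in Th1 and 0.23 ± 0.10 in Th17 (interaction 0.62 ± 0.12, adjusted p = 0.0147, and 0.074 without Th17 KO 3). Sp140, a chromatin reader of leukocytes, had 0.56 ± 0.12 (adjusted p = 0.0196, lost on leaving out any 1 of 5 libraries, up to 0.122 without Th17 WT 1). Tcf4, a transcription factor of the E-protein family, had 0.94 ± 0.21 (adjusted p = 0.0311) and Ddt, a relative of the cytokine MIF, 0.60 ± 0.14 (adjusted p = 0.0411), and both were lost on leaving out any 1 of 8 or more libraries, up to 0.173 and 0.178 without Th17 WT 1. All 10 genes of this class had Th1 groups that did not overlap (24.5% of all genes), as the choice of the class would make likely.

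Genes higher in KO only in Th1 were led by Mxi1, a repressor that competes with Myc for its partner Max. It was at 50.4, 47.7 and 49.3 CPM in Th1 WT and 99.1, 96.5 and 97.2 CPM in Th1 KO, a log2 change of 0.99 ± 0.08. Its Th17 level was 87.5, 84.2 and 69.6 CPM in WT against 108.2, 77.7 and 86.7 CPM in KO, groups that overlapped, and the interaction was -0.81 ± 0.12 (adjusted p = 0.000639), called with any 1 library left out. Trp73, the p53 relative p73, was at 2.68, 1.96 and 2.43 CPM in Th1 WT and 7.75, 9.73 and 6.70 CPM in Th1 KO, with overlapping Th17 groups (interaction -2.09 ± 0.36, adjusted p = 0.00275, and 0.137 without Th17 WT 1).

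Tmem176b, a membrane protein of the Th17 list, was the only 1 of its 25 tested genes to pass (0.591% of all genes). It was at 10.01, 10.97 and 8.88 CPM in Th1 WT and 20.98, 28.2 and 20.03 CPM in Th1 KO, against 6.19, 11.1 and 5.19 CPM in Th17 WT and 7.09, 8.40 and 6.97 CPM in Th17 KO. It thus rose in KO in Th1 (1.22 ± 0.14) and not in Th17 (-0.01 ± 0.24), an interaction of -1.23 ± 0.28 (adjusted p = 0.0374) that was lost on leaving out any 1 of 8 libraries, from 0.0538 (without Th17 WT 3) to 0.123 (without Th17 WT 2). In Th1 5 of the 25 genes were higher in KO (1.69% of all genes) and in Th17 4 (1.81%). Tmem176a, its neighbour, had -0.91 (adjusted p = 0.19). Smaller Th1 increases with a call in the interaction were those of Cars, a cysteine tRNA ligase, at -0.47 ± 0.10 (adjusted p = 0.0243), Hspbp1, a cochaperone of Hsp70, at -0.57 ± 0.13 (adjusted p = 0.0307) and Tex15, a gene of germ cell meiosis, at -0.85 ± 0.19 (adjusted p = 0.0374). Each of these 3 lost the call on leaving out any 1 of at least 5 libraries, up to 0.103 for Cars (without Th17 KO 3) and to 0.226 and 0.337 for Hspbp1 and Tex15 (without Th17 WT 1).

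**Figure D4:**
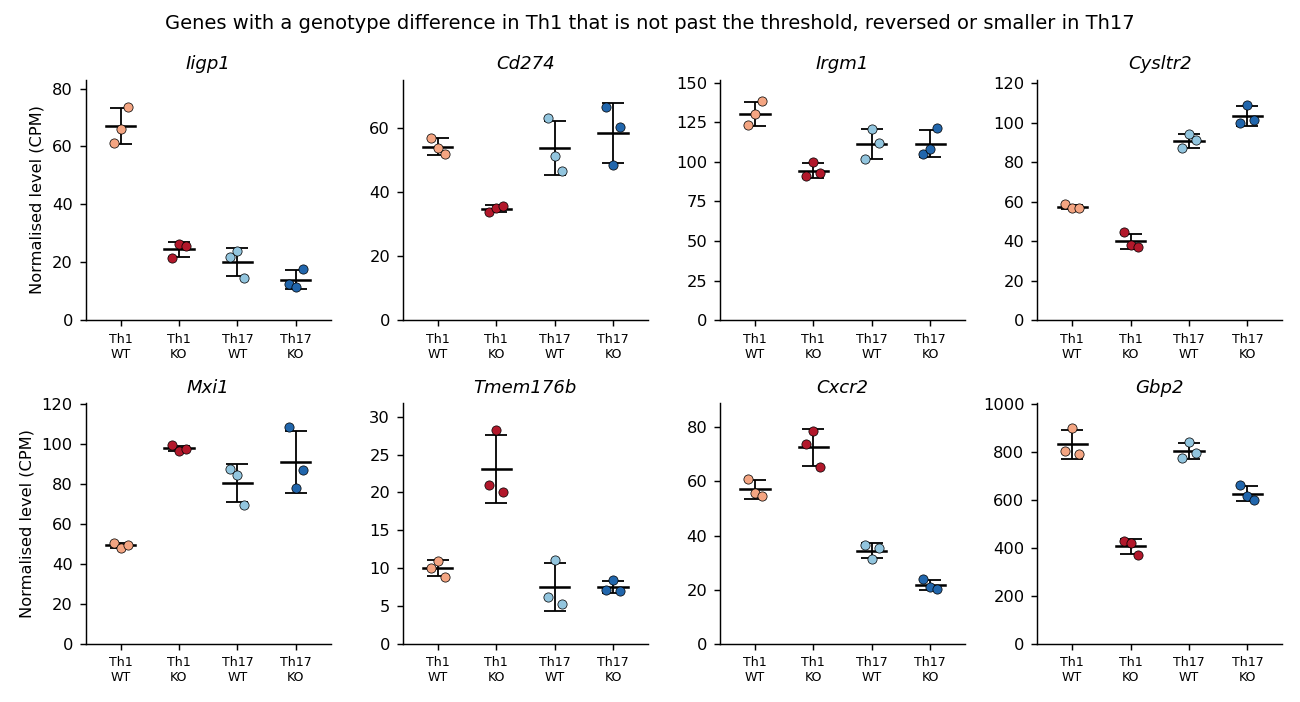
Normalised level in CPM (y axis, from 0) of 8 genes in the 12 libraries by group (x axis), drawn with points for libraries, a long bar for the mean of 3 and whiskers for ± 1 SD. Iigp1, Cd274, Irgm1 and Cysltr2 are lower and Mxi1 and Tmem176b higher in Th1 KO, with no call in Th17, while Cxcr2 goes opposite ways and Gbp2 is lower in KO in both cultures.

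In 2 genes both cultures passed with opposite signs. Cxcr2, a chemokine receptor best known from neutrophils, was at 60.9, 55.8 and 54.5 CPM in Th1 WT and 73.8, 78.6 and 65.3 CPM in Th1 KO, and at 36.5, 31.3 and 35.3 CPM in Th17 WT and 23.9, 21.01 and 20.2 CPM in Th17 KO. It rose in Th1 (0.35 ± 0.07, adjusted p = 0.00585) and fell in Th17 (-0.67 ± 0.11, adjusted p = 0.000352), with no overlap in either culture and an interaction of -1.02 ± 0.13 (adjusted p = 0.000107) that was called with any 1 library left out. Zdhhc8, a palmitoyl transferase, went the same ways by 0.24 ± 0.07 and -0.37 ± 0.10 (interaction -0.61 ± 0.12, adjusted p = 0.0158, lost on leaving out any 1 of 4 libraries, at 0.0506 without Th1 WT 1 to 0.18 without Th17 WT 1).

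Of the 10 genes lower in KO in both cultures, Tspan32 and Gbp2 fell further in Th1 and the other 8 further in Th17. Tspan32, a tetraspanin of blood cells on chromosome 7 (chr7:143005046-143019644), was at 7.04, 6.82 and 6.11 CPM in Th1 WT and 0.283, 0.417 and 0.242 CPM in Th1 KO, where 12 counts remained over the 3 libraries. Th17 levels were 40.8, 42.7 and 44.7 CPM in WT against 14.9, 23.1 and 15.3 CPM in KO. The groups stood apart in both cultures, by -4.32 ± 0.26 in Th1 and -1.42 ± 0.13 in Th17, with the largest positive interaction of the 72 (2.90 ± 0.33, adjusted p = 1.21e-05). It lies in a stretch of chromosome 7 around Tnfrsf26, where 2 of the 23 genes tested within 2 Mb passed the interaction (8.7%). The share over all genes was 0.591%. Tspan32 passed with a positive sign and Cars with a negative one.

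Hopx, a homeodomain cofactor of effector and memory Th1 cells, was at 161.2, 152.2 and 159.4 CPM in Th1 WT and 119.7, 115.9 and 119.1 CPM in Th1 KO, and at 79.3, 71.6 and 79.95 CPM in Th17 WT and 31.6, 27.3 and 35.4 CPM in Th17 KO. It fell in both (-0.41 ± 0.06 and -1.22 ± 0.08), and further in Th17 (interaction -0.81 ± 0.10, adjusted p = 6.68e-05). Fgl2, a secreted immune regulator, had -0.82 ± 0.14 (adjusted p = 0.00406, and 0.0788 without Th17 WT 1) and Anxa1, annexin A1, an anti-inflammatory phospholipid-binding protein, had -0.64 ± 0.12 (adjusted p = 0.00454). Bcl2l11, which encodes the death protein BIM and was picked out after its values were seen, was at 33.6, 47.5 and 29.1 CPM in Th17 WT and 12.6, 11.6 and 11 CPM in Th17 KO, against 81.7, 80.3 and 66.3 CPM and 54.9, 56.8 and 47.5 CPM in Th1 (interaction -1.11 ± 0.19, adjusted p = 0.00721). Tspan32, Hopx and Anxa1 were called with any 1 library left out, and Bcl2l11 had an adjusted p of 0.0599 without Th17 KO 3.

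Inhibitory and costimulatory receptors split by sign. Of 30 tested, Cd274 passed with a positive interaction (0.115% of all genes), as given above. Lag3 and Cd96 passed with negative ones (0.476% of all genes). Lag3, an inhibitory receptor for class II molecules, was at 50.4, 54.6 and 52.95 CPM in Th17 WT and 23.9, 19.96 and 19.8 CPM in Th17 KO, and at 14.3, 17.2 and 13.4 CPM and 10.96, 13.1 and 8.80 CPM in Th1. It fell in both cultures, and further in Th17 (interaction -0.82 ± 0.18, adjusted p = 0.0341). Cd96, a receptor of the nectin family, was at 22.7, 40.3 and 25.96 CPM in Th17 WT and 10.5, 13.7 and 14.03 CPM in Th17 KO, with overlapping Th1 groups (interaction -1.28 ± 0.26, adjusted p = 0.0374). Both calls were lost on leaving out any 1 of at least 7 libraries, up to 0.172 for Lag3 (without Th1 KO 2) and to 0.101 for Cd96 (without Th1 WT 1).

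The Th17 cytokines were measured at low levels. Il17f was higher in Th17 KO, at 12.2, 8.40 and 14.2 CPM, than in Th17 WT, at 3.73, 2.37 and 1.04 CPM, and Il17a likewise, at 8.49, 3.15 and 7.90 CPM against 2.37, 0.396 and 0 CPM. Both were at or near 0 in the Th1 libraries, so neither has an interpretable contrast between cultures. Il10, an anti-inflammatory cytokine, had -1.53 ± 0.39 on Th17 levels of at most 2.63 CPM (adjusted p = 0.0723, and 0.0485 without Th17 WT 2), Il21 had 0.77 ± 0.25 (adjusted p = 0.314, and 0.0166 in DESeq2), and Cxcl10, an interferon-induced chemokine, had 1.36 ± 0.39 (adjusted p = 0.127, and 0.0436 without Th17 KO 1).

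In 16 of the 25 gene lists no member passed the interaction, among them ribosomal proteins (30 tested), glycolysis and hypoxia (26), DNA replication and mitosis (32), cholesterol and fatty acid synthesis (27) and both oxidative phosphorylation lists (13 mitochondrial and 29 nuclear genes). Among the members nearest to the threshold in their lists were Slc7a5, a transporter of large amino acids in the list of the unfolded protein response and ATF4, with -0.45 ± 0.11 (adjusted p = 0.0508, and 0.0221 to 0.0386 without Th17 WT 3, Th17 KO 2 or Th1 KO 3), and Lss, lanosterol synthase of cholesterol synthesis, with -0.43 ± 0.11 (adjusted p = 0.0826, and 0.0436 without Th17 KO 1). Foxp1 of the naive and memory list had 0.53 ± 0.16 (adjusted p = 0.143) and Lrrc32, the TGF-beta docking receptor GARP, -0.99 ± 0.31 (adjusted p = 0.193). Selplg, a selectin ligand of the adhesion list, had -0.30 ± 0.09 (adjusted p = 0.148) and Tnfaip3, a brake on NF-kappa-B of the activation list, 0.30 ± 0.10 (adjusted p = 0.201). In the core metabolic and mitotic lists the members nearest to passing had these interactions: Plk1, a mitotic kinase, -0.37 ± 0.15 (adjusted p = 0.395), Pfkl, a glycolytic kinase, 0.25 ± 0.10 (adjusted p = 0.347), Ndufv1 and mt-Nd3 of respiratory complex I, -0.22 and -0.19 (adjusted p = 0.519 and 0.476), and Rpl11, a ribosomal protein, 0.16 ± 0.09 (adjusted p = 0.624).

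**Figure D5:**
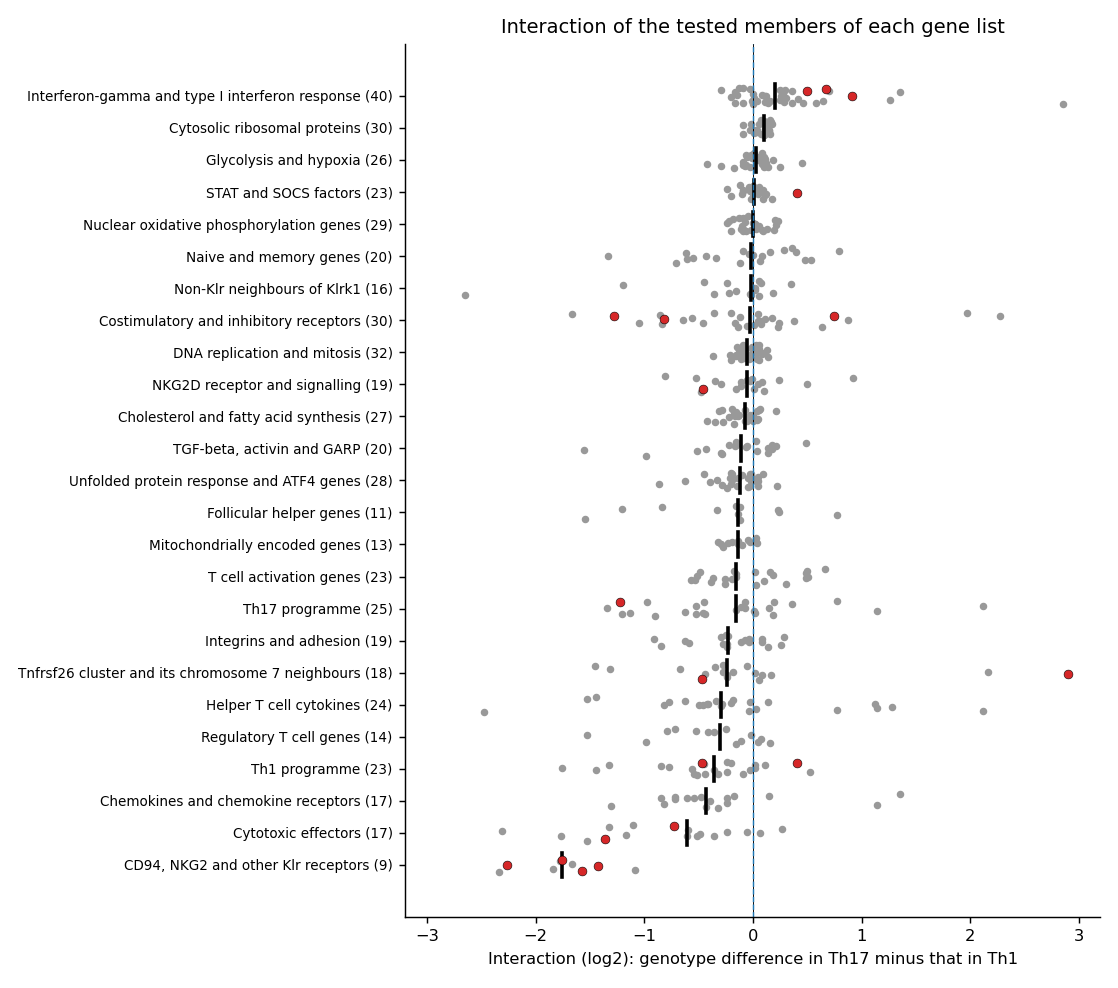
Each row is a gene list with its number of tested members, each point is a member's interaction on the log2 scale (x axis), red points passed, black bars are medians and the thin vertical lines at and beside 0 mark no difference and the median of all genes. The CD94, NKG2 and other Klr receptors have the lowest median at -1.76, followed by cytotoxic effectors at -0.61, and the interferon response has the highest at 0.20.

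The genes lower only in Th17 were not all genes that Th17 cells express more. In 28 of the 41 the mean level was higher in Th1 WT than in Th17 WT, against 51.1% of all genes tested. Klrc1, P2ry14, Ifngr1, Pik3cd and Aqp9 were of that kind, with a genotype difference in the culture where the WT level was lower, whereas Serpine2 and Ctla2b had their higher WT level in Th17. Markers of other cells stood higher in Th17 libraries: B cell markers summed to 17.7 to 24.7 CPM in Th17 WT and 32.4 to 35.9 CPM in Th17 KO, against 6.42 to 7.47 CPM in Th1, and dendritic cell and macrophage markers to 70.6 to 90.8 and 92.8 to 101 CPM, against 20.4 to 24.7 CPM in Th1. Of these markers 2 of 7 and 8 of 12 were tested and none passed the interaction, and the part of such cells in the genes above was not tested.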

How the data were processed

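Poly-A RNA of 12 sorted samples was measured by RNA-seq, with strand not marked by the kit, per the labels' protocols. Per the submitters' processing notes TopHat2, Bowtie2, featureCounts and GRCm38 (mm10) were used; for versions, strand setting and reads with several matches the sources used here give nothing. Values as deposited are raw read counts per Ensembl gene ID, as whole numbers with a different total in each file. Of 39179 IDs, 37607 (96.0%) were named and placed with GENCODE on GRCm38. Replicate numbers follow accession order and are not used to pair samples, since the labels do not say whether samples were paired.

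Counts were scaled by TMM, filtered with filterByExpr over the 4 groups (12189 genes left) and fitted in edgeR 4.0.16 (R 4.3.3) with the robust quasi-likelihood model on all 12 libraries, which share 1 estimate of the spread. The interaction is (Th17 KO - Th17 WT) - (Th1 KO - Th1 WT) on the log2 scale, tested with Benjamini-Hochberg adjustment over all genes at 0.05. SE is that of the log2 value. CPM are TMM-scaled. By raw library totals, a count of 3 corresponds to 0.236 to 0.329 CPM in the deep libraries. In the shallow ones it corresponds to 1.10 to 1.82 CPM. Both cover counting error only. On the TMM scale of the CPM given here, 3 counts stand higher in the shallow libraries. Values such as 1.05 CPM (Aqp9) and 2.10 CPM (Klri2) in Th17 KO 2 thus rest on very few counts. No 2 libraries were identical, and within groups log CPM correlated at 0.946 to 0.994. The scripts were tested on simulated data with known differences. With 3 against 3 in each culture the exact permutation test over 400 arrangements cannot give a p below 0.005.

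Some genes under the naming rule are not reported here. Named were the genes of the receptor and the lineages, the 10 highest and 10 lowest interaction values past the threshold with at least 5 CPM in 1 group, up to 6 per class by p, and up to 4 per gene list that passed, or the nearest where none did. Others are said to be chosen after their values were seen, except list members given beside their list. The members and the 25 gene lists were chosen with earlier results of these data known. Alternatives covered RLE scaling, DESeq2 1.42.0, limma-voom (limma 3.58.1), the filter, thinning, the shallow libraries, a replicate block, other thresholds and each library left out; leaving out the deep Th17 libraries was added after the data were seen. Promoters came from RefSeq (GRCm38.p6).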

Additional observations from a re-analysis of the deposited data

Results flagged for a closer look

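The difference between cultures was itself tested for 12189 genes, and 72 passed. The values here are those of the 42 genes named above, as log2 interactions, and each was given with its test in the report.

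Negative values, a lower KO level in Th17 relative to Th1, were those of the receptor genes Klri2 (-2.26), Klrd1 (-1.76), Klrc2 (-1.57), Klrc1 (-1.43), Cd96 (-1.28), P2ry14 (-1.08), Cxcr2 (-1.02), Ffar2 (-1.39), Lag3 (-0.82) and Ifngr1 (-0.47). Effector, inhibitor and secreted genes followed, with Serpine2 (-1.49), Fasl (-1.36), Ctla2b (-0.73), Fgl2 (-0.82) and Anxa1 (-0.64). Signalling and death genes were Pik3cd (-0.46), Pik3r5 (-0.77), Prex1 (-0.69) and Bcl2l11 (-1.11). Regulators of transcription and RNA were Mecom (-2.12), Trp73 (-2.09), Rbm47 (-1.91), Hopx (-0.81), Chd3 (-0.81) and Mxi1 (-0.81). Others were Aqp9 (-1.95), Tmem176b (-1.23), Tex15 (-0.85), Zdhhc8 (-0.61), Hspbp1 (-0.57) and Cars (-0.47).

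Positive values, a higher KO level in Th17 relative to Th1, were those of Tspan32 (2.90), Tcf4 (0.94), Iigp1 (0.92), Cd274 (0.74), Ppp2r3c (0.73), Cysltr2 (0.71), Gbp2 (0.68), Casp1 (0.62), Ddt (0.60), Sp140 (0.56) and Irgm1 (0.50). Of these 42 genes, 18 passed the interaction in each of the 12 fits that left out 1 library.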

How the results depend on the processing

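All 72 genes kept their sign under each alternative that fitted them (68 of 68 when thinned), as their choice from these same libraries would make likely. No named gene reversed as a call, and 4 genes (Klrd1, Serpine2, Klrc1 and Gbp2) passed under all 23 alternatives. The 5 counts below are in the order all, positive, negative, Th17 only and Th1 only, reported as 72, 14, 58, 43 and 17. They were 207, 61, 146, 105 and 46 with no filter, 22, 3, 19, 15 and 4 with libraries thinned to the smallest total (10 of the 72 among them), 31, 4, 27, 20 and 4 at an adjusted p of 0.01, 150, 38, 112, 91 and 34 at 0.1, and 9, 2, 7, 3 and 4 without the deep Th17 libraries. A term for the shallow libraries gave 22 positive and 26 Th1 only, leaving those libraries out gave 6 positive and 26 Th17 only, and limma-voom gave 26 Th17 only. RLE gave 78 genes and DESeq2 81, of which 59 were among the 72. Leaving out 1 library gave 38 to 108 genes in all, 6 to 26 positive, 32 to 82 negative, 22 to 52 in Th17 only and 4 to 27 in Th1 only. Where a culture's arm kept 1 library, that library was assumed to vary like the others. The causes of these moves were not tested.

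With a replicate block by library code the counts were 329, 104, 225, 164 and 85, and 71 of the 72 were among the 329, with 8 of the cytotoxic list against 2 as reported. The codes are not stated to pair the samples: same-code correlations were -0.0622 to 0.226, and 5 of 6 WT libraries correlated best with their own code, a hint from the data and not from the design.

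The shallow libraries limit the Th17 side, where the median SE was 0.141 against 0.108 in Th1 and 0.178 for the interaction.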
